A study of Mus musculus with 48 samples.

Results

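The dual-specificity MAP kinase phosphatases are enzymes that switch off MAP kinases, and the transcripts of 10 genes of the family were followed here through 16 groups of mouse macrophages. The genes are Dusp1, Dusp2, Dusp3, Dusp4, Dusp5, Dusp6, Dusp7, Dusp8, Dusp10 and Dusp16. They were taken by symbol from the deposited count table, in which all 10 were found among 51789 gene IDs (51596 of them with a symbol). In GENCODE M21 (GRCm38), a build the counts may not share, the protein-coding genes described most below lie at chr17:26505590-26562128 (Dusp1, minus strand), chr2:127336159-127338376 (Dusp2, plus), chr8:34807297-34819894 (Dusp4, plus), chr19:53529109-53542431 (Dusp5, plus), chr10:99263231-99267489 (Dusp6, plus) and chr6:134715468-134792625 (Dusp16, minus).

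MAP kinases (ERK, JNK and p38) are active only while a threonine and a tyrosine of their activation loop carry phosphate, and these phosphatases remove both. Many of the genes are themselves induced by the kinases they act on, which makes them negative feedback regulators, and in macrophages DUSP1 is best known for limiting p38 and JNK signalling after Toll-like receptor stimulation. Dusp1, Dusp2, Dusp4 and Dusp5 encode nuclear, inducible enzymes. Dusp6 and Dusp7 encode cytoplasmic enzymes that prefer ERK. Dusp8, Dusp10 and Dusp16 encode enzymes that prefer JNK and p38, and Dusp3 encodes a small atypical enzyme without the kinase-binding domain of the others.

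The 48 libraries fall into 8 macrophage populations, each with 3 libraries treated with 10 µM of the compound AP-3-84 for 4 h and 3 treated with the solvent DMSO (vehicle). The 2 peritoneal populations were selected on F4/80 with magnetic beads. The first came from the ascites of mice 45 days after injection of ID8 ovarian tumour cells (strain C57BL/6, with the genotype label B6(Cg)-Tyrc-2J/J). The other came from wild-type C57BL/6 mice injected 4 days earlier with thioglycollate (1 ml at 3%), which recruits macrophages to the peritoneum. The other 6 populations were grown from bone marrow of wild-type (WT) or p53 knockout (KO) C57BL/6 mice in M-CSF (10 ng/mL, 6 days). M0 cells received no polarizing cytokine, M1 cells had 24 h of LPS (100 ng/mL) with IFN-γ (50 ng/mL), and M2 cells had 24 h of IL-4 and IL-13 (10 ng/mL each). Groups follow the titles, descriptions and design text, which separate WT from KO, although wild-type is entered as the genotype of all 36. Nothing in the labels says that the 3 libraries of a group came from separate animals or cultures, so p-values measure only the spread between these libraries, which may be technical.

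The libraries hold 3′ tag counts, with totals of 15532373 to 19417581 in the 12 peritoneal libraries and 3081707 to 4645148 in the 36 bone marrow-derived ones, a ratio of medians of 4.30. CPM below means a count relative to its library's total after TMM scaling of all 48 libraries together, and ± after a group mean is the SD of 3 libraries. Macrophage markers were present throughout (Csf1r, 842 to 8162 CPM; Lyz2, 3126 to 40470 CPM). Cdkn1a, a p53 target, had 562 to 1131 CPM in WT (18 libraries) and 33.7 to 307 CPM in KO (18 libraries), whereas Trp53 itself overlapped (4.74 to 13.4 and 2.77 to 9.36 CPM). Which part of Trp53 was deleted is not given in the labels, so a 3′ tag there is no check of the genotype. Libraries differed within several groups. In WT M0 vehicle, replicate 1 had Saa3, an LPS-responsive gene, at 73.1 CPM against 428 and 644 CPM. In WT M2 vehicle, replicate 1 had Saa3 at 3348 CPM against 200.2 and 174 CPM. In KO M0 with AP-3-84, replicate 3 had the scavenger receptor gene Marco at 473 CPM against 2953 and 2130 CPM. By the chi-square of counts per gene, replicate 1 was the farther library in ascites AP-3-84 (22.2 and 25.2, against 8.37 between the others), KO M2 vehicle (22.7 and 32.4, against 11.9) and KO M1 with AP-3-84 (17.7 and 14.2, against 4.13). Neutrophil markers summed to 320.5 to 3088 CPM in the second of these groups and 705 to 3579 CPM in the third. In KO M1 vehicle, replicate 2 was the farther library (24.6 and 15.3, against 10.25 between the others).

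RefSeq promoters (GRCm38.p6) were matched for 9 of the 10 members, all but Dusp4, and the 250 bases before the start site were searched on both strands. The motif TGACGT, the core of cyclic AMP response elements, stood in 3 of the 9 (Dusp1, Dusp5 and Dusp8) and in 6.47% of 32851 promoters of the same length. The CArG box, the motif of serum response factor, stood in Dusp5 alone among the 9, with 2 matches, and in 1.47% of all promoters. The AP-1 motif TGANTCA (6.75% of all promoters) and the ETS core CCGGAA (12%) had no match among the 9. GAANNTTC, a pair of heat shock element units, was found in Dusp16 (6.69% of all promoters), and TGACNNNGC, the core of antioxidant response elements, in Dusp1 and Dusp5 (10.2%), without overlapping a TGACGT match. In Dusp1 and in Dusp8, TGACGT matches on opposite strands overlap each other. Such matches describe the letters and show no binding. The Dusp1 and Dusp5 windows are printed because they hold the TGACGT and CArG box matches among the members called higher with AP-3-84 in thioglycollate macrophages, described next. Dusp6 and Dusp16 were called there too without either motif, and Dusp8, with several TGACGT matches, was called in no population treated with AP-3-84. Each is given 5′ to 3′ on the strand of the gene, with TGACGT (either strand) and CArG box matches in capitals. The Dusp1 window is chr17:26508473-26508722 (minus strand) and the Dusp5 window is chr19:53528895-53529144 (plus strand).
Dusp1: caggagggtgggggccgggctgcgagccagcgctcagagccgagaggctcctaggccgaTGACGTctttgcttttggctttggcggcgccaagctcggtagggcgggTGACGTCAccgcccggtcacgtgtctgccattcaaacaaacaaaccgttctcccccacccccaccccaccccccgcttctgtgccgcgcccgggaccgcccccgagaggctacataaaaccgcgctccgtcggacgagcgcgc
Dusp5: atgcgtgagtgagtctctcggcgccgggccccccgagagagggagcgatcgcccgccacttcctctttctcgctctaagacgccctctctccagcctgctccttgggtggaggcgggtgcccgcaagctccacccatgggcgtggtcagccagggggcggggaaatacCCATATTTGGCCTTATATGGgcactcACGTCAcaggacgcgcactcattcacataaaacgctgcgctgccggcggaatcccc

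AP-3-84 raised 2 members in ascites macrophages and 5 in thioglycollate macrophages, and lowered none there. The share of all 16955 genes tested that was called was 1.79% in ascites and 4.32% in thioglycollate macrophages. Each compound group was compared with its vehicle group by edgeR's quasi-likelihood test, with p-values adjusted by Benjamini-Hochberg over all genes tested and called under 0.05. Fold changes are log2 ± SE.

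Dusp1 was at 18.0, 16.6 and 18.8 CPM in the vehicle libraries of ascites macrophages and at 47.1, 49.8 and 45.1 CPM with AP-3-84. All 3 treated libraries lay above all 3 controls, and the log2 fold change was 1.43 ± 0.13 (edgeR adjusted p = 5.09e-06). In thioglycollate macrophages the vehicle libraries had 14.0, 9.54 and 13.1 CPM and the treated ones 47.4, 36.3 and 37.4 CPM. Here too the groups were apart, with a log2 fold change of 1.73 ± 0.14 (edgeR adjusted p = 6.8e-07). Dusp1 kept its call in all 13 alternative analyses in both populations.

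The other nuclear genes differed between the populations in whether they passed the test. Dusp2 was at 3.50, 2.70 and 1.61 CPM in ascites vehicle and 6.19, 4.26 and 5.73 CPM with AP-3-84. Its log2 fold change of 1.07 ± 0.25 was called (edgeR adjusted p = 0.0366). That call was lost when ascites vehicle replicate 2 (0.13) or 3 (0.154), or ascites AP-3-84 replicate 1 (0.0983) or 3 (0.0835), was left out, values being adjusted p, and without any of these 4 libraries 1 member remained called. In thioglycollate macrophages Dusp2 had 11.9, 9.66 and 10.9 CPM with vehicle and 9.03, 10.7 and 8.25 CPM with the compound, which overlap (log2 fold change -0.20 ± 0.23, edgeR adjusted p = 0.746). The difference between the 2 responses of Dusp2 was 1.27 ± 0.34 and did not pass (edgeR adjusted p = 0.312).

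Dusp4, an ERK and JNK phosphatase, was low in thioglycollate macrophages, at 1.34, 0.85 and 1.80 CPM with vehicle and 3.48, 5.16 and 3.04 CPM with AP-3-84. The treated libraries were all higher, by 1.55 ± 0.34 (edgeR adjusted p = 0.0128), a call lost without thioglycollate vehicle replicate 1 (0.0555) or 2 (0.0731) or AP-3-84 replicate 2 (0.0789). In ascites the 3 treated libraries were also above the controls, 3.70, 3.81 and 2.65 against 1.61, 1.64 and 2.14 CPM, but the change of 0.93 ± 0.33 was not called (edgeR adjusted p = 0.247). Dusp5, a nuclear phosphatase specific for ERK, was at 2.42, 1.40 and 2.78 CPM in thioglycollate vehicle and 4.00, 5.29 and 4.82 CPM with AP-3-84, groups that did not overlap. The change was 1.10 ± 0.23 (edgeR adjusted p = 0.0103). In ascites it was 14.5, 16.7 and 18.0 CPM with vehicle and 30.5, 23.6 and 20.7 CPM with the compound, again apart, with 0.62 ± 0.18 (edgeR adjusted p = 0.118).

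Of the cytoplasmic ERK phosphatases, Dusp6 rose by a small amount in thioglycollate macrophages and Dusp7 was called in neither population. Dusp6 had 22.6, 18.4 and 18.4 CPM with vehicle and 27.8, 26.3 and 26.4 CPM with AP-3-84 in thioglycollate macrophages. These groups were apart and the log2 fold change was 0.45 ± 0.09 (edgeR adjusted p = 0.00573). In ascites macrophages, where Dusp6 started at 94.2 ± 2.52 CPM, it reached 107 ± 3.05 CPM, a change of 0.20 ± 0.08 (edgeR adjusted p = 0.357). Dusp7 changed by 0.12 ± 0.11 and -0.24 ± 0.11 in ascites and thioglycollate macrophages.

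Among the genes for JNK and p38 phosphatases, Dusp16 rose in thioglycollate macrophages, from 9.94, 6.99 and 8.56 CPM to 17.2, 13.9 and 13.1 CPM. The groups were apart (0.80 ± 0.15, edgeR adjusted p = 0.00559). In ascites the same gene had 20.3, 22.5 and 19.9 CPM with vehicle and 18.8, 25.5 and 20.4 CPM with AP-3-84, which overlap (0.06 ± 0.14, edgeR adjusted p = 0.928). The difference between these responses, -0.74 ± 0.21, was not called (edgeR adjusted p = 0.376). Dusp10 was low, with 35 counts in all in ascites vehicle and 90 with AP-3-84, and 57 and 104 in thioglycollate macrophages. Its treated libraries were above the controls in both, yet neither change was called (1.55 ± 0.45, edgeR adjusted p = 0.114, and 1.04 ± 0.43, 0.231). Dusp8, at most 2.73 CPM in the 12 peritoneal libraries, and Dusp3, which changed by 0.13 ± 0.09 and 0.02 ± 0.09, were not called.

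The median log2 fold change of the 10 members was 0.44 and 0.72, beside -0.0048 and 0.03 over all genes. In a fit of all 48 libraries together, 1 member (Dusp1) remained called in each of the 2 populations. Difference tests between the ascites and thioglycollate responses called 0 of 10 members, with 4 under an unadjusted p of 0.05 and 0 by DESeq2, and 0.118% of all genes.

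**Figure D1:**
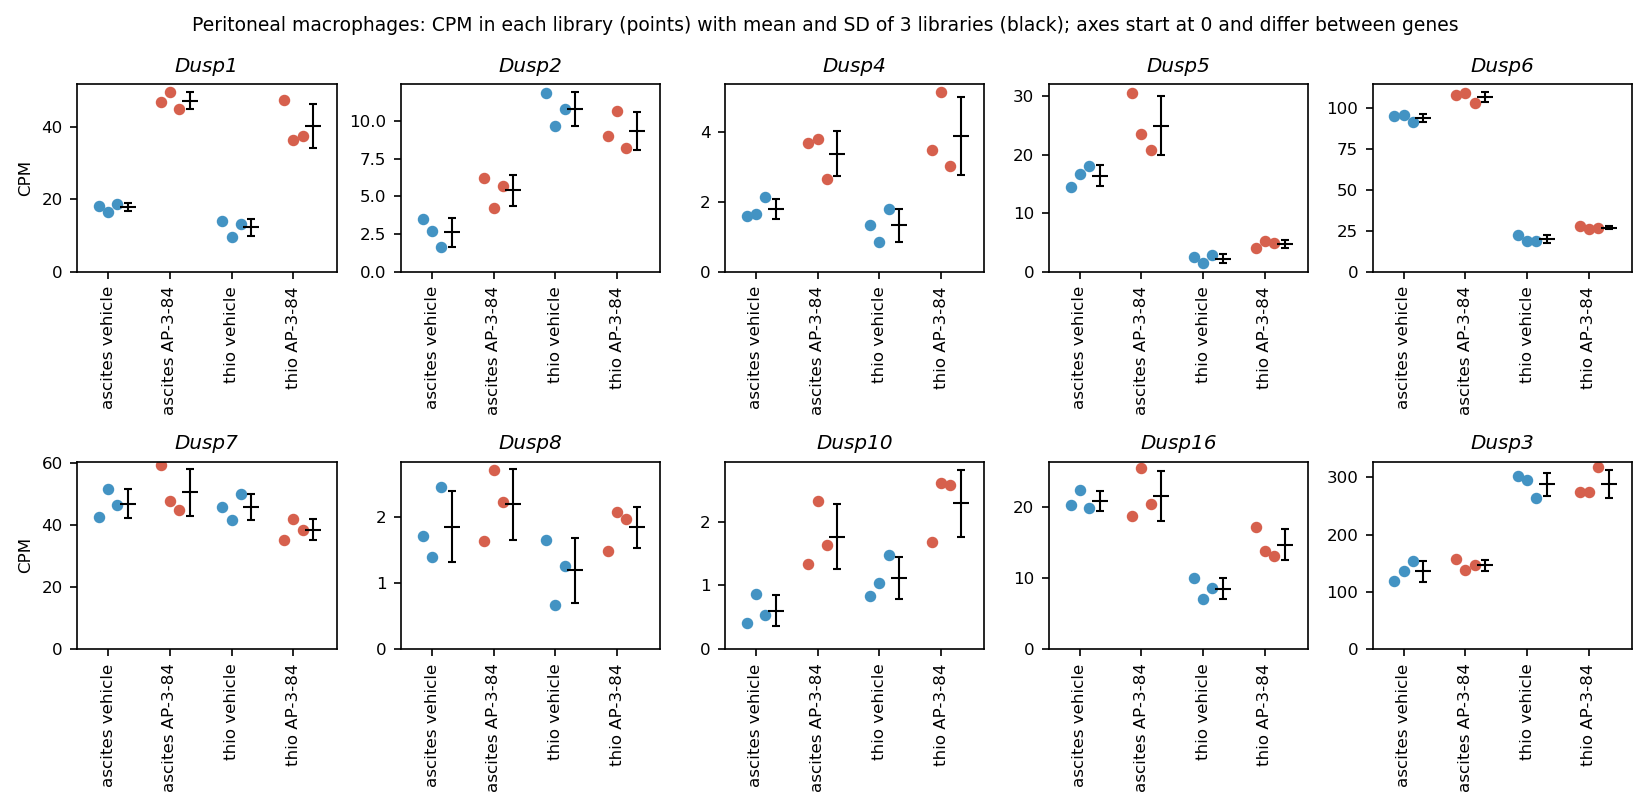
CPM of the 10 members (y axis, from 0) in each of the 12 peritoneal libraries, by population and treatment (x axis), with the mean and SD of 3 libraries in black. Dusp1 is higher in all treated libraries of both populations, and Dusp5 and Dusp6 are higher in ascites than in thioglycollate macrophages.

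The rest of the pathway was read from 3 gene lists. Of 37 tested genes of the ERK feedback and target list, 9 rose and 0 fell in ascites, among them the immediate-early genes Egr1 (2.03 ± 0.16) and Fosb (3.06 ± 0.68), on the log2 scale. In thioglycollate macrophages 9 rose, with Fosl1 at 2.20 ± 0.36 and Egr1 at 2.15 ± 0.17, and 1 fell, Zfp36l1, which encodes an mRNA decay factor (-0.63 ± 0.08). Of 47 tested genes of the kinase cascade itself, 0 changed in ascites and 1, the kinase gene Map3k1, fell in thioglycollate macrophages (-0.32 ± 0.08). None of the 19 tested other phosphatases was called in either. Hspa1a, a heat shock gene used as a check of exposure, went from 2.20 to 2.56 CPM with vehicle to 674 to 733 CPM with AP-3-84 in ascites, and from 3.12 to 5.47 CPM to 307 to 413 CPM in thioglycollate macrophages.

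In bone marrow-derived macrophages fewer members were called, and most calls came from KO M0. Of 9 members tested there (Dusp10, with 124 counts over 36 libraries, fell below the filter), 0 were called in WT M0, 0 in WT M1, 1 in WT M2, 4 in KO M0, 0 in KO M1 and 0 in KO M2. The shares of all 11779 genes called were 0.144%, 0.017%, 1.21%, 20.7%, 0% and 0.0509% in the same order. At an unadjusted p under 0.05 the uncalled populations had 1, 4, 0 and 2 members (WT M0, WT M1, KO M1, KO M2), and DESeq2 called 0 in each of the 4. Over all genes in KO M1, where edgeR and DESeq2 called 0, 206 had an unadjusted p under 0.05. Hspa1a, the check of exposure, rose with the compound in M0 and M2 of each genotype (log2 fold change 3.535 to 4.613, all called). In M1 it was not called, at 2.15 ± 0.55 in WT (edgeR adjusted p = 0.232) and 0.89 ± 0.60 in KO. Another stress gene, Gdf15, rose in WT M1 (2.46 ± 0.32, edgeR adjusted p = 0.000132). The 0 member calls in M1 thus come without a called exposure check. Whether the compound acted less there was not tested.

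Dusp6 was the member called in WT M2. It was at 35.1, 18.4 and 22.3 CPM with vehicle and 89.3, 78.8 and 66.6 CPM with AP-3-84, so that every treated library was above every control. The log2 fold change was 1.63 ± 0.35 (edgeR adjusted p = 0.0114). It was not called without WT M2 vehicle replicate 2 (0.0769), AP-3-84 replicate 1 (0.0859) or AP-3-84 replicate 2 (0.0535), which leaves 0 members called, and it stayed called without vehicle replicate 1. Marker sums moved with the compound in WT M2. The 9 matched LPS and IFN-γ genes of 10 summed to 563 to 6295 CPM with vehicle, with 0 at 0 counts, and to 267 to 320 CPM with AP-3-84, with 1 at 0 counts. Among them Il1b (46.8 to 235 CPM with vehicle and 3.01 to 12.8 CPM with AP-3-84, edgeR adjusted p = 0.00849), Acod1 (log2 fold change -3.03, 0.00622), Saa3 (-4.28, 0.0218) and Gbp2 (-2.16, 0.0281) fell. The 6 neutrophil markers summed to 421 to 3656 CPM (median 545) and 185 to 469 CPM (median 373.5), overlapping ranges, with 0 and 1 at 0 counts. The 6 IL-4 and IL-13 genes summed to 7434 to 10390 CPM with vehicle and 5169 to 6043 CPM with AP-3-84, with 0 at 0 counts. Their part in the Dusp6 change was not tested. In KO M2 the same gene had 10.2, 20.3 and 19.6 CPM with vehicle and 6.41, 9.87 and 10.6 CPM with the compound, overlapping ranges (-0.88 ± 0.40, edgeR adjusted p = 0.357). The difference between the KO and WT responses was -2.51 ± 0.53 (edgeR adjusted p = 0.0135), and it was the 1 member called of 9, against 1.77% of all genes. Without KO M2 vehicle replicate 2 or 3 its adjusted p was 0.0597 or 0.0508 and 0 members were called. Without KO M2 vehicle replicate 1, 2 members were called, with Dusp7 at -0.86 (edgeR adjusted p = 0.0372).

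In KO M0, 2 members rose and 2 fell. Dusp2, a nuclear phosphatase of activated leukocytes, was at 9.08, 8.21 and 5.48 CPM with vehicle and 33.7, 25.7 and 15.1 CPM with AP-3-84. Dusp16 was at 8.56, 8.21 and 5.21 CPM with vehicle and 31.4, 23.6 and 13.8 CPM with AP-3-84. In both genes every treated library was above every control, and treated replicate 3 was the lowest of the treated ones. The log2 fold changes were 1.67 ± 0.35 for Dusp2 (edgeR adjusted p = 0.000925) and 1.61 ± 0.28 for Dusp16 (0.000144), and both calls held in all 13 alternatives. In WT M0 the treated libraries of Dusp16 were also all above the controls, with a change that was not called (0.63 ± 0.27, edgeR adjusted p = 0.455). The KO minus WT difference of the Dusp16 response was 0.98 ± 0.39 and not called (edgeR adjusted p = 0.0784). It passed without KO M0 AP-3-84 replicate 3 (1.24, 0.0137).

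The members that fell in KO M0 moved less. Dusp3 went from 187, 202 and 244 CPM to 127, 127 and 183 CPM (-0.56 ± 0.18, edgeR adjusted p = 0.0223). Dusp7 went from 78.1, 83.6 and 71.8 CPM to 49.7, 59.5 and 59.8 CPM (-0.49 ± 0.17, edgeR adjusted p = 0.0397). Although the treated and vehicle libraries were apart in both genes, the calls were not stable: 2 members, Dusp2 and Dusp16, were left without AP-3-84 replicate 1 or 2. Dusp7 also lost its call without vehicle replicate 1 (0.0854) or 2 (0.13), and Dusp3 without vehicle replicate 3 (0.116). Without AP-3-84 replicate 3 there were 5, since Dusp5 then passed at -2.06 (edgeR adjusted p = 0.0137). Dusp5 had 2.06, 2.29 and 11.6 CPM with the compound against 9.08, 9.42 and 8.22 CPM with vehicle, so that replicate alone lay above the controls. Dusp1 was at 38.9, 17.6 and 38.1 CPM with vehicle and 50.7, 52.9 and 70.9 CPM with AP-3-84, apart but not called by edgeR (0.85 ± 0.34, adjusted p = 0.0694) and called by DESeq2 (0.0437).

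The LPS and IFN-γ marker sum rose with the compound in KO M0. The 9 matched genes of 10 summed to 72.1 to 165 CPM in the vehicle libraries and 973 to 5133 CPM with AP-3-84, and in the vehicle libraries 2 of these markers were at 0 counts. Marco, whose treated levels are given above, weighs heavily in the treated sum. Nos2 was at 0 to 0.515 CPM with AP-3-84 and at 0 to 0.785 CPM over the 6 M0 vehicle libraries of both genotypes. The sum therefore does not describe each gene of the list. The part of these markers in the member changes was not tested. Neutrophil markers (6 of 6 matched) summed to 514 to 635 CPM with vehicle and 273 to 421 CPM with AP-3-84. In bulk libraries, fewer cells of a type and less RNA per cell cannot be told apart.

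For Dusp2 the response in KO M0 also exceeded that in WT M0, where it was at 10.0, 18.7 and 23.6 CPM with vehicle and 11.1, 14.2 and 15.1 CPM with AP-3-84. The difference was 2.03 ± 0.48 (edgeR adjusted p = 0.00434), called in all 19 alternatives. It was the 1 member called of 9 in that difference, while 17% of all genes were called. Leaving out WT M0 vehicle replicate 1 gave 4 called members and leaving out KO M0 AP-3-84 replicate 3 gave 6. Dusp6 and Dusp3 were added in both cases: Dusp6 passed at -1.64 (edgeR adjusted p = 0.0103) and -1.43 (0.023), and Dusp3 at -0.92 (0.0125) and -0.86 (0.00916). In WT M0 vehicle, Dusp6 was at 145 CPM in replicate 1 and at 53.5 and 55.0 CPM in the other libraries.

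In WT M1 the low members varied widely between treated libraries. Dusp5 had 2.34, 2.57 and 2.49 CPM with vehicle and 5.91, 3.49 and 19.1 CPM with AP-3-84, and Dusp4 had 3.21, 4.63 and 4.47 CPM and 6.22, 7.23 and 18.8 CPM. All treated libraries were above the controls, and replicate 3 of the treated ones was far above the rest. Neither change was called (1.93 ± 0.63, edgeR adjusted p = 0.42, and 1.37 ± 0.58, 0.567). Dusp8 went from 2 counts in the vehicle group to 13 with AP-3-84, a ratio of 7.11 with a 95% exact interval of 1.61 to 64.9, which covers counting error only. The remaining response differences called 0 of 9 members each. They were KO minus WT in M1, with 3 members under an unadjusted p of 0.05 and 0.00849% of all genes called, WT M1 minus WT M0, with 1 and 0.0255%, and WT M2 minus WT M0, with 1 and 0.136%. DESeq2 called 0 members in these 3.

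**Figure D2:**
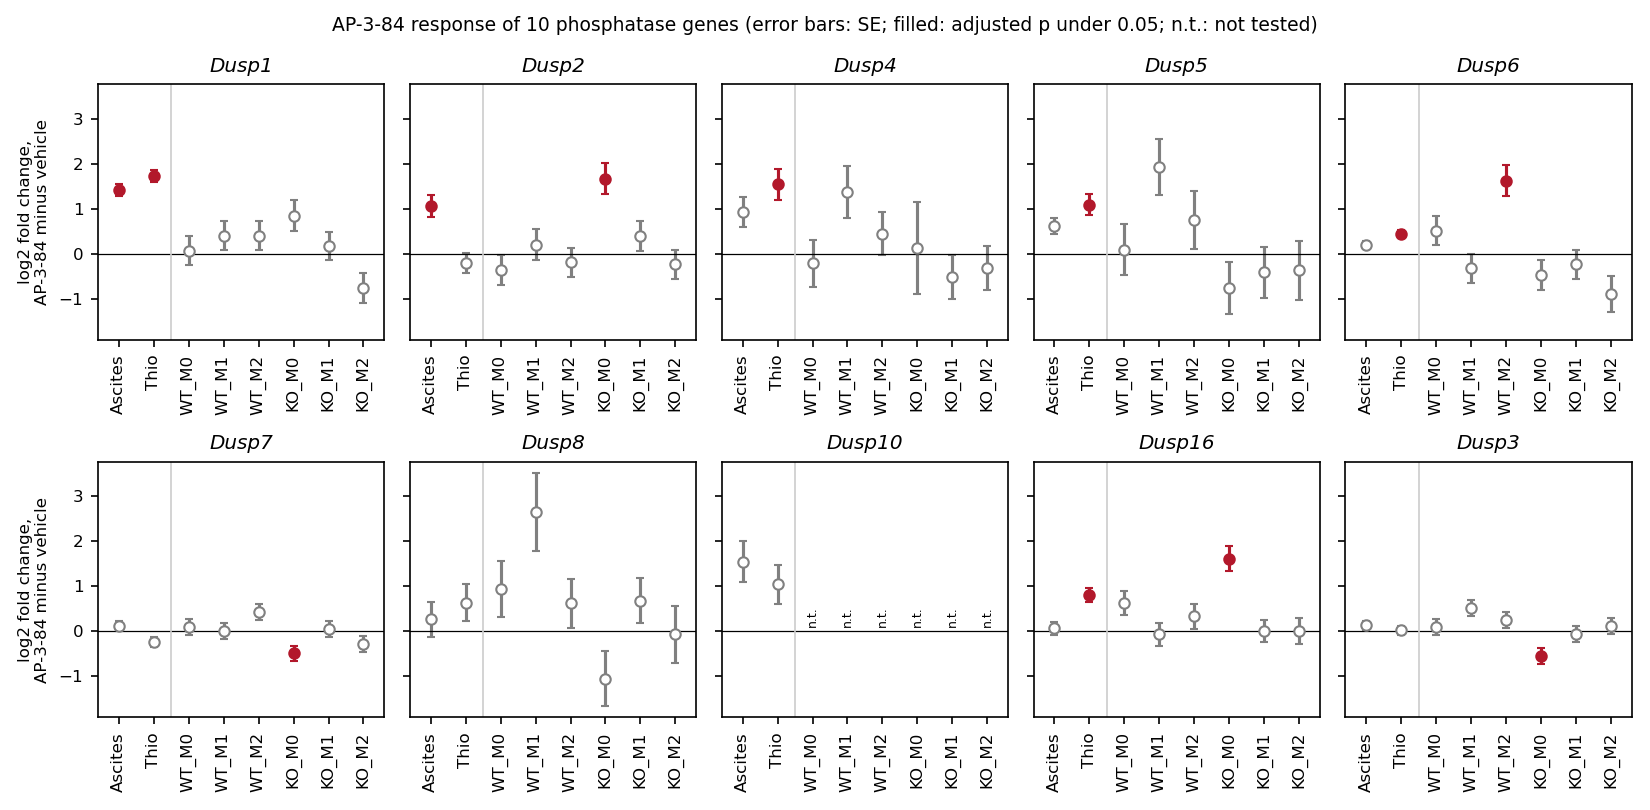
Log2 fold change of AP-3-84 minus vehicle with its SE (y axis) for each member in the 8 populations (x axis), filled where the edgeR adjusted p was under 0.05. Dusp1 is called in both peritoneal populations, and the calls of Dusp2 and Dusp16 in KO M0 are of 1.67 and 1.61.

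**Figure D3:**
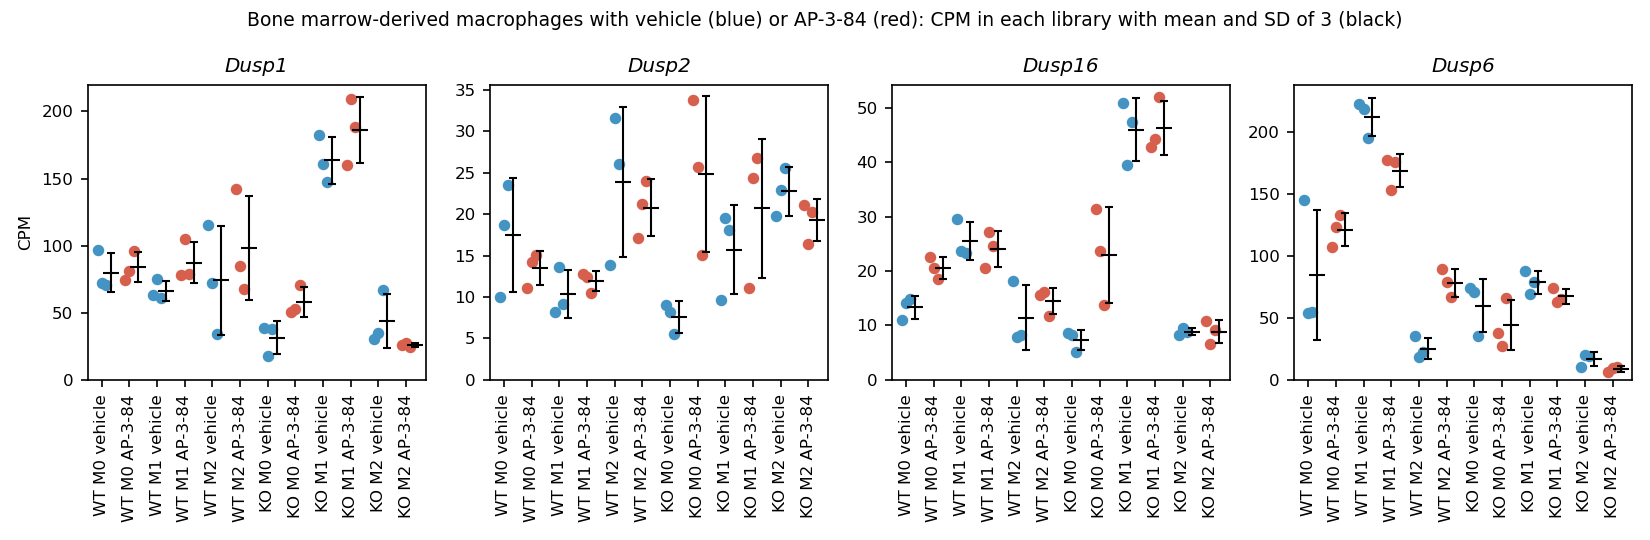
CPM (y axis, from 0) of Dusp1, Dusp2, Dusp16 and Dusp6 in each of the 36 bone marrow-derived libraries, by genotype, polarization and treatment (x axis), with the mean and SD of 3 in black. Dusp2 and Dusp16 are higher with AP-3-84 in KO M0, and Dusp6 in WT M2.

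Pathway genes around the members showed few calls in these populations outside KO M0. In WT M2, the p38 substrate kinase gene Mapkapk2 (-0.66 ± 0.14) and the phosphatase gene Dusp23 (-0.84 ± 0.18) fell, 1 of 45 cascade genes and 1 of 17 other phosphatases, and 0 of 34 ERK targets were called. In KO M0, where 20.7% of all genes were called, 4 cascade genes rose and 5 fell of 45. Among them were the exchange factor gene Sos1 at 1.37 ± 0.21 and Map2k5 at -0.93 ± 0.24. Of 34 ERK targets 1 rose, the transcription factor gene Ets2 (2.85 ± 0.39), and 2 fell, including Zfp36l1 (-1.38 ± 0.46). Of 17 other phosphatases 2 rose, Ptpn7, whose product acts on ERK and p38 (0.67 ± 0.19), and Ppp2ca (0.42 ± 0.11). The KO M0 counts are near or below the share of all genes called there, so they are no result about these lists. In the other 4 populations 0 genes of these lists were called.

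Without the compound, the 2 peritoneal populations differed in 6 of the 10 members, 4 higher and 2 lower in ascites, against 33.7% of all genes called. The ERK phosphatase genes Dusp5 and Dusp6 had the largest differences. Dusp5 was at 14.5, 16.7 and 18.0 CPM in ascites and 2.42, 1.40 and 2.78 CPM in thioglycollate macrophages (2.93 ± 0.22, edgeR adjusted p = 7.01e-09). Dusp6 was at 95.3, 96.0 and 91.3 CPM in ascites and 22.6, 18.4 and 18.4 CPM in thioglycollate macrophages (2.29 ± 0.09, edgeR adjusted p = 9.51e-13). In both genes every ascites library was above every thioglycollate library. Dusp16 was higher by 1.34 ± 0.15 (edgeR adjusted p = 1.71e-06) and Dusp1 by 0.58 ± 0.14 (0.00258).

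Dusp2 and Dusp3 went the other way, lower in ascites. Dusp2 was at 3.50, 2.70 and 1.61 CPM against 11.9, 9.66 and 10.9 CPM, a difference of -2.01 ± 0.25 (edgeR adjusted p = 4.33e-06). Dusp3 was at 118, 135 and 154 CPM against 303, 296 and 264 CPM, a difference of -1.05 ± 0.09 (edgeR adjusted p = 9.29e-08). Neither gene overlapped between the populations. Dusp4, Dusp7, Dusp8 and Dusp10 were not called, with differences from -0.83 ± 0.45 (Dusp10) to 0.68 ± 0.40 (Dusp8). An antisense gene, Gm20659, is annotated over the 3′ end of Dusp3, and strand use in the authors' counting is not given in the sources used here, so reads of the 2 cannot be told apart.

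Epithelial markers differed along with the members. The 7 genes of that list, all matched, summed to 206 to 244 CPM in ascites vehicle libraries, with 0 of the 7 at 0 counts, and to 2.56 to 4.65 CPM in thioglycollate ones, with 2 at 0 counts. Krt8, an epithelial keratin gene, was at 44.7 to 56.1 CPM in the former. Their part in the differences was not tested. Of 37 ERK targets 21 were higher and 5 lower in ascites, against 33.7% of all genes called. Etv4, an ERK-induced ETS factor gene, had 98 counts in ascites and 0 in thioglycollate vehicle, at least 29.0-fold higher, with 3 counts in the whole thioglycollate group taken as the floor. Spry4, a feedback inhibitor gene of receptor tyrosine kinases, had 80 and 1 counts (ratio 71.1, 95% exact interval 12.4 to 2843). Jun and Atf3, genes of stress-activated factors, were lower (-1.49 ± 0.08 and -1.39 ± 0.07).

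Among vehicle-treated bone marrow-derived macrophages the p53 genotypes differed in 5 of 9 members in M0, 6 in M1 and 0 in M2. The shares of all genes called were 33.2%, 11.6% and 3.56%. In M2, 1 member had an unadjusted p under 0.05 and DESeq2 called 0. Dusp1, Dusp4 and Dusp16 were lower in KO than in WT in M0 and higher in M1.

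Dusp4 was at 22.8, 4.62 and 6.28 CPM in WT M0 and 1.56, 0.61 and 0.55 CPM in KO M0, a total of 143 and 10 counts (-3.54 ± 0.72, edgeR adjusted p = 0.000494). Of the 143 counts, 100 were in WT replicate 1, and without that library the difference was -2.49 (edgeR adjusted p = 0.012). Without KO replicate 1, which held 6 of the 10, it was -4.19 (0.00159). In M1 it was at 3.21, 4.63 and 4.47 CPM in WT and 24.9, 7.80 and 21.0 CPM in KO (2.03 ± 0.56, edgeR adjusted p = 0.0172). The genotypes were apart in both states, in opposite order. In M2 they overlapped, at 40.0, 18.7 and 16.9 CPM in WT and 19.0, 28.9 and 24.8 CPM in KO (-0.10 ± 0.47, edgeR adjusted p = 0.943).

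Dusp1 followed the same order. It was at 96.6, 72.3 and 70.7 CPM in WT M0 and 38.9, 17.6 and 38.1 CPM in KO M0 (-1.30 ± 0.33, edgeR adjusted p = 0.00363). In M1 it was at 63.0, 74.9 and 60.9 CPM in WT and 182, 161 and 148 CPM in KO (1.23 ± 0.32, edgeR adjusted p = 0.0139). The genotypes did not overlap in either state. Dusp16 differed by -0.82 ± 0.29 in M0 (edgeR adjusted p = 0.0281) and by 0.78 ± 0.25 in M1 (0.0396), where it was at 29.5, 23.7 and 23.4 CPM in WT and 50.9, 39.5 and 47.4 CPM in KO.

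The remaining calls were of Dusp2, Dusp3, Dusp6, Dusp7 and Dusp8. In M0, Dusp2 was lower in KO (-1.16 ± 0.35, edgeR adjusted p = 0.0116) and Dusp3 higher (0.57 ± 0.18, 0.0127), the latter with overlapping libraries because WT M0 replicate 1 was at 194 CPM and the others at 117 and 125 CPM. In M1, Dusp6 was lower in KO, at 87.9, 68.9 and 79.0 CPM against 223, 219 and 195 CPM (-1.50 ± 0.33, edgeR adjusted p = 0.00357). It differed by -0.46 ± 0.33 in M0 and by -0.63 ± 0.36 in M2, neither called (edgeR adjusted p = 0.288 and 0.348). Dusp7 was lower in M1 as well (-0.60 ± 0.18, edgeR adjusted p = 0.0229), though with total-count scaling it differed by -0.34 and was not called (0.195). Dusp8 had 48 counts in KO M1 and 2 in WT M1, a ratio of 23.2 with a 95% exact interval of 6.09 to 197, and was called (edgeR adjusted p = 0.000503).

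Several of these genotype calls rest on particular libraries. In M0 the count of 5 called members became 3 without WT replicate 2, 2 without WT replicate 3 or without KO replicate 3, and 6 without WT replicate 1. In M1 the count of 6 became 3 without WT replicate 1 or 2 or KO replicate 1 or 3, and 2 without WT replicate 3. In M2, Dusp1 alone was called (-1.15, edgeR adjusted p = 0.0335) without WT replicate 3. Dusp1 and Dusp4 in M0, and Dusp6 and Dusp8 in M1, were called in every alternative that could be run. The M1 calls of Dusp1, Dusp4 and Dusp16 were lost on leaving out any of 3, 5 and 5 libraries. Their edgeR adjusted p then reached 0.0577, 0.0836 and 0.129. The M0 call of Dusp16 was lost on leaving out any of 3 libraries (up to 0.154). The LPS and IFN-γ marker sum also differed between the genotypes, at 1483 to 3261 CPM in WT M0 and 72.1 to 165 CPM in KO M0, and at 71350 to 78920 CPM in WT M1 and 31120 to 51850 CPM in KO M1. Not every gene of the list followed the sum in M1. Il1b and Nos2 reached 1445 and 18.2 CPM in KO M1 vehicle, against at most 530 and 4.90 CPM in the 18 WT libraries. The 6 neutrophil markers summed to 252 to 466 CPM in WT M0 and 514 to 635 CPM in KO M0, with 0 and 1 of them at 0 counts, and to 426 to 546 CPM in WT M1 and 975 to 2445 CPM in KO M1, with 0 at 0 counts. The 7 macrophage markers summed to 42650 to 45950 CPM in WT M1 and 16550 to 25840 CPM in KO M1, with 0 at 0 counts. Most of that sum was Lyz2, at 11580 to 39780 CPM over the 6 M1 vehicle libraries of both genotypes. Over the same libraries Adgre1 was at 1243 to 2671, Csf1r at 1369 to 1931 and Cd68 at 424 to 739 CPM. The sum therefore does not describe macrophage markers in general. Their part in the member differences was not tested.

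Pathway genes were also compared between the genotypes, where 33.2%, 11.6% and 3.56% of all genes were called in M0, M1 and M2. Of 45 cascade genes, the 16 called in M0 are near that share and the 3 in M1 are below it. These counts are therefore no result about the cascade. In M0, 12 cascade genes were higher and 4 lower in KO of 45, with Map3k14, a kinase gene of NF-κB signalling, at 2.53 ± 0.37 and Map2k3, a p38 kinase gene, at -0.86 ± 0.22. Of 34 ERK targets 8 were higher, such as Egr1 (3.04 ± 0.50), and 7 lower, such as the cyclin gene Ccnd1 (-3.34 ± 0.59). In M1, 0 cascade genes were higher and 3 lower, and 9 ERK targets were higher and 5 lower, again with Egr1 (2.89 ± 0.53) and Ccnd1 (-2.05 ± 0.56). In M2, 0 ERK targets were higher and 5 lower, with Phlda1 at -1.50 ± 0.40 and the AP-1 gene Jund at -0.93 ± 0.23.

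Polarization was then compared with M0 within each genotype. The M1 and M2 comparisons of a genotype share its M0 vehicle libraries. In WT, 2 of 9 members were higher in M1 and 0 lower, against 15.5% of all genes called. In KO, 4 were higher in M1 and 2 lower, against 44.5%. The WT M1 count was 1 without WT M0 replicate 1 or WT M1 replicate 1 and 4 without WT M0 replicate 2, and with total-count scaling 6 members were called, Dusp6 higher and Dusp2, Dusp3, Dusp4, Dusp5 and Dusp8 lower.

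In KO, Dusp16 rose from 8.56, 8.21 and 5.21 CPM in M0 to 50.9, 39.5 and 47.4 CPM in M1 (2.59 ± 0.28, edgeR adjusted p = 2.4e-08). Dusp1 rose from 38.9, 17.6 and 38.1 CPM to 182, 161 and 148 CPM (2.32 ± 0.34, edgeR adjusted p = 3.84e-06). Dusp4, at 10 counts in KO M0 vehicle, had 209 counts in KO M1 (4.18 ± 0.71, edgeR adjusted p = 2.57e-05). All M1 libraries of these 3 genes lay above all M0 libraries. Dusp2 was also called higher (1.00 ± 0.36, edgeR adjusted p = 0.0218), though not without KO M0 replicate 3 (0.104) or KO M1 replicate 2 (0.09) or 3 (0.0731). Dusp7 and Dusp3 were lower (-0.95 ± 0.18, edgeR adjusted p = 5.73e-05, and -0.67 ± 0.18, 0.00259).

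In WT the M1 calls were Dusp6, from 145, 53.5 and 55.0 CPM to 223, 219 and 195 CPM (1.38 ± 0.33, edgeR adjusted p = 0.00422), and Dusp16, from 10.9, 14.1 and 14.9 CPM to 29.5, 23.7 and 23.4 CPM (0.99 ± 0.26, 0.00925). M1 libraries were above M0 libraries in both genes. Without WT M0 replicate 1 the Dusp6 difference was 2.02 (edgeR adjusted p = 8.09e-05). In a fit of only the libraries compared, Dusp6 was not called (0.0968) and Dusp5, at -1.54 in the larger fit (0.0948), was called lower (-1.56, 0.00606). With total-count scaling Dusp16 was not called (0.0516). Dusp1 in WT was at 70.7 to 96.6 CPM in M0 and 60.9 to 74.9 CPM in M1, which overlap (-0.21 ± 0.32, edgeR adjusted p = 0.721).

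M2 polarization was accompanied by lower Dusp6 and Dusp7 in both genotypes. In WT 1 member was higher and 2 lower of 9, against 23.4% of all genes called, and in KO 2 were higher and 2 lower, against 38%. Dusp6 fell in WT to 35.1, 18.4 and 22.3 CPM (-1.70 ± 0.35, edgeR adjusted p = 0.000621), and without WT M0 replicate 1, at 145 CPM, the difference was -1.05 (0.0151). In KO it fell from 73.7, 71.1 and 35.1 CPM to 10.2, 20.3 and 19.6 CPM (-1.87 ± 0.36, edgeR adjusted p = 0.00015). The M2 libraries were below the M0 libraries in each genotype, and the WT count of 3 called members was also 3 without WT M2 replicate 1. Dusp7 fell by 0.66 ± 0.18 in WT (edgeR adjusted p = 0.00625) and by 0.98 ± 0.18 in KO (4.99e-05) on the log2 scale, the WT call being lost without WT M0 replicate 1 (0.0878).

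In KO M2, Dusp4 rose to 19.0, 28.9 and 24.8 CPM (4.64 ± 0.69, edgeR adjusted p = 7.22e-06) and Dusp2 from 9.08, 8.21 and 5.48 CPM to 19.8, 22.9 and 25.6 CPM (1.55 ± 0.35, 0.000752). In WT, Dusp3 was higher in M2 (0.68 ± 0.18, edgeR adjusted p = 0.00484), a call lost without WT M0 replicate 2 (0.0543). WT Dusp4 changed by 1.20 ± 0.50 and was not called (edgeR adjusted p = 0.0794). Without WT M0 replicate 1, in which Dusp4 was at 22.8 CPM, it changed by 2.26 and was called (0.00283). The 7 macrophage markers summed to 5960 to 18530 CPM in KO M2 vehicle and 31930 to 39470 CPM in KO M0 vehicle, with 0 of them at 0 counts. Lyz2 weighs heavily in these sums. It was at 3126 to 24940 CPM in the 6 M2 vehicle libraries of both genotypes and 24900 to 34620 CPM in the 6 M0 ones. The part of the markers in these differences was not tested. Counts of 2, 6, 3 and 4 called members of 9 in the polarization comparisons stand beside shares of 15.5%, 44.5%, 23.4% and 38% of all genes, so the number of calls is no result about the family.

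**Figure D4:**
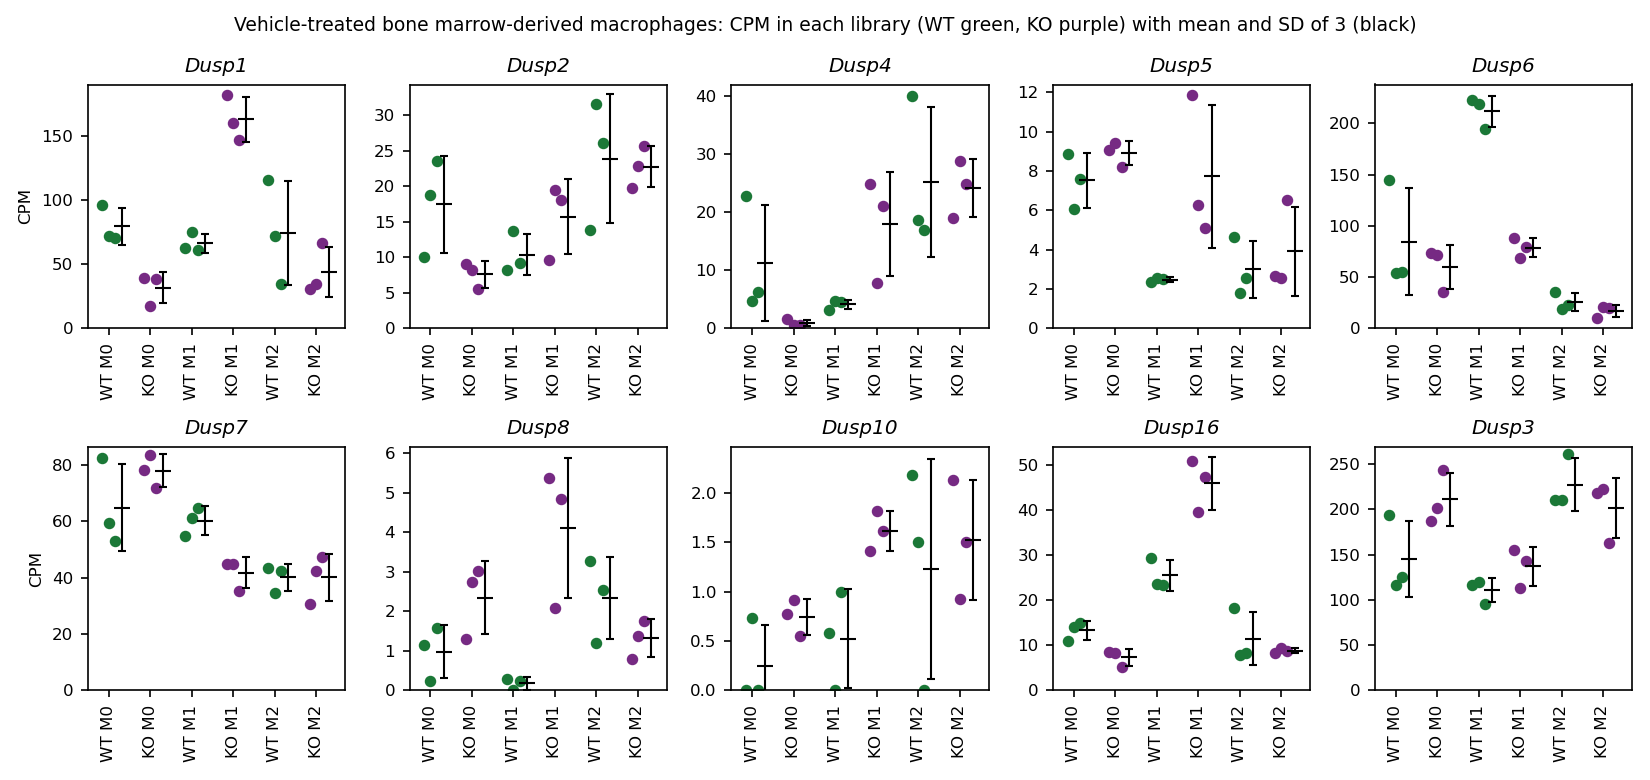
CPM of the 10 members (y axis, from 0) in each vehicle-treated bone marrow-derived library, by polarization and genotype (x axis), with the mean and SD of 3 in black. Dusp1 and Dusp16 are highest in KO M1, Dusp6 is highest in WT M1 and lowest in M2, and 1 WT M0 library stands above the other 2 in Dusp4 and Dusp6.

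Whether polarization differed between the genotypes was tested directly. For M1 against M0, KO minus WT, 6 of 9 members were called, 5 higher and 1 lower, against 20.7% of all genes. Dusp4 differed by 5.57 ± 0.92 (edgeR adjusted p = 7.57e-05), Dusp1 by 2.53 ± 0.46 (0.000264), Dusp2 by 1.69 ± 0.49 (0.0139), Dusp16 by 1.60 ± 0.38 (0.00305), Dusp8 by 2.97 ± 1.02 (0.0364) and Dusp7 by -0.90 ± 0.25 (0.0088). The Dusp8 value rests on 2 counts in WT M1 and was no longer called in 10 of 19 alternatives, among them 7 that removed a library: WT M0 replicate 1 (0.0824) or 3 (0.111), WT M1 replicate 2 (0.106) or 3 (0.0584), KO M0 replicate 1 (0.0713), or KO M1 replicate 1 (0.0674) or 3 (0.069). Dusp1, Dusp2, Dusp4 and Dusp16 were called in all 19, Dusp4 at 4.52 without WT M0 replicate 1 and at 6.24 without KO M0 replicate 1. Dusp6 differed by -1.04 ± 0.46 and was not called (edgeR adjusted p = 0.108), but passed without WT M0 replicate 1 (-1.68, 0.00449) or KO M0 replicate 3 (-1.30, 0.0436).

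For M2 against M0, 2 of 9 members were called, against 27.1% of all genes. Dusp4 differed by 3.44 ± 0.89 (edgeR adjusted p = 0.0051), by 2.39 without WT M0 replicate 1 (0.0392) and by 4.09 without KO M0 replicate 1 (0.00687), and Dusp3 by -0.77 ± 0.25 (0.0209). The Dusp3 call was lost without WT M0 replicate 2 (0.069) or 3 (0.0592), WT M2 replicate 3 (0.0687), KO M0 replicate 3 (0.0625) or KO M2 replicate 3 (0.0793). The count of called members was then 1, except without WT M0 replicate 3, where Dusp8 was gained at -2.56 (edgeR adjusted p = 0.0413). It was 3 without WT M0 replicate 1, where Dusp2 was gained (1.35, edgeR adjusted p = 0.0406), and without WT M2 replicate 2 or KO M0 replicate 1, where Dusp8 was gained (-2.41, 0.0423, and -2.40, 0.0413).

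Genes whose level followed a member most closely were sought over the 12 bone marrow-derived group means among 8424 genes, by Pearson's r of log2 CPM. This is a description over groups that share libraries and treatments. Dusp3 was followed by Baiap2 (r = 0.98), Gsto1 (0.96) and Pmepa1 (0.96), and Dusp4 by Fuca2 (0.98), Prdx4 (0.95) and Mtpn (0.93). Dusp6 was followed by Ctla2b (0.96), Apobr (0.95) and Fhod1 (0.95), and Dusp7 by Pald1 (0.96), Sgsh (0.95) and Zcchc24 (0.94). For Dusp16 the nearest were Gfer (0.95), Utp23 (0.94) and Nupr1 (0.93), and for Dusp1 they were Eri2 (0.93), Etv1 (0.92) and Jdp2 (0.92). The lowest of the best values were those of Dusp2 (Pusl1, 0.91), Dusp5 (Fbxo28, 0.90) and Dusp8 (Irs2, 0.87).

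Over all 16 groups, Dusp1 ranged from 12.2 ± 2.36 CPM in thioglycollate vehicle to 186 ± 24.5 CPM in KO M1 with AP-3-84. Its 2 KO M1 groups overlapped each other and lay above every library of the next group, WT M2 with AP-3-84. Dusp6 ranged from 8.95 ± 2.22 CPM in KO M2 with AP-3-84 to 212 ± 15.1 CPM in WT M1 vehicle, which was apart from WT M1 with AP-3-84 at 169 ± 13.5 CPM. Dusp16 ranged from 7.33 ± 1.84 CPM in KO M0 vehicle to 46.3 ± 4.94 CPM in KO M1 with AP-3-84, again with both KO M1 groups above the next. The mean of Dusp5 was highest in the 2 ascites groups (25.0 ± 5.05 CPM with AP-3-84, 16.4 ± 1.81 CPM with vehicle). Its means in the other groups were between 2.20 and 9.50 CPM. Replicate 3 of WT M1 with AP-3-84, at 19.1 CPM, lay above the ascites vehicle libraries (14.5, 16.7 and 18.0 CPM). Dusp4 ranged from 0.90 ± 0.57 CPM in KO M0 vehicle to 34.5 ± 2.83 CPM in WT M2 with AP-3-84. Dusp3 and Dusp7 spanned less, from 111 ± 13.5 to 289 ± 24.6 CPM and from 32.8 ± 2.61 to 77.8 ± 5.88 CPM. Dusp8, Dusp10 and Dusp2 reached at most 6.63, 2.61 and 33.7 CPM in the 48 libraries.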

How the data were processed

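RNA of 48 libraries was measured by QuantSeq FWD 3′ sequencing of 100 ng total RNA (reads of 75 bases), per the labels' protocols. The deposited table holds whole-number counts per Ensembl gene ID and library. The submitters' processing notes name RSEM, Bowtie2 and DESeq2, without role, so the counts may be rounded estimates. Neither build, annotation, strand setting nor UMI use is given in the sources used. GENCODE M21 (GRCm38) supplied symbols and coordinates by gene ID.

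Replicate libraries differed by more than counting noise (chi-square per gene 5.30 to 25.2 in peritoneal and 2.51 to 38.7 in bone marrow-derived pairs). Counts were tested with edgeR 4.0.16 (R 4.3.3; filterByExpr by group, TMM, robust quasi-likelihood, 1 mean per group, two-sided) in 2 fits (12 peritoneal libraries, 36 from bone marrow), with Benjamini-Hochberg adjustment over 16955 and 11779 genes. Biological coefficients of variation were 0.17 and 0.22. The pipeline was tested on simulated data. All 10 members were named in every comparison, and from each list up to 2 called genes with the largest rise and fall. The members and lists were chosen with earlier results of these data known. Likeness used genes with an average log2 CPM of at least 3. Alternatives were median-ratio and total-count scaling, no filter, DESeq2 1.42.0, a replicate block, 1 fit of all libraries, fits of only the libraries compared, and leaving out each library. Intervals and floors cover counting error only. The level of 1 count was 0.0483 to 0.0670 CPM in peritoneal and 0.217 to 0.321 CPM in bone marrow-derived libraries.

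Other genes are annotated over Dusp1, Dusp3, Dusp5, Dusp8, Dusp10 and Dusp16, such as Ergic1 on the opposite strand at the 5′ end of the Dusp1 gene model.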

Additional observations from a re-analysis of the deposited data

Results flagged for a closer look

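In 10 results the effect of the same contrast differed between 2 groups by a test of the difference itself (edgeR, adjusted p under 0.05). For the response to AP-3-84, KO minus WT, Dusp2 differed by 2.03 in M0 and Dusp6 by -2.51 in M2, on the log2 scale. For M1 against M0 in vehicle libraries, KO minus WT, the differences were 5.57 for Dusp4, 2.97 for Dusp8, 2.53 for Dusp1, 1.69 for Dusp2, 1.60 for Dusp16 and -0.90 for Dusp7. For M2 against M0 they were 3.44 for Dusp4 and -0.77 for Dusp3. The M1 and M2 contrasts share the WT M0 and KO M0 vehicle libraries, in which Dusp4 had 143 and 10 counts. The response difference in M0 uses the same libraries, so the 2.03 and 1.69 of Dusp2 are not separate results. Dusp2 was at 9.08, 8.21 and 5.48 CPM in KO M0 vehicle. In M0 vehicle the LPS and IFN-γ marker sum was 1483 to 3261 CPM in WT and 72.1 to 165 CPM in KO. Its part in the differences above was not tested.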

How the results depend on the processing

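Of 54 member calls, 29 kept their direction and call in all alternatives run, 25 lost the call in at least 1 (19 of these on leaving out a library), and 0 reversed. The number of called members of each comparison moved by over 1.5 times as follows. In ascites, AP-3-84 called 1 under total-count scaling, the replicate block, the 48-library fit and the fit of only the libraries compared. The 48-library fit gave 1 for AP-3-84 in thioglycollate macrophages, 3 for the KO minus WT response in M0 and 4 for WT M1 against M0. Without the filter, counts were 2 for AP-3-84 in WT M1 and in KO M2, 1 for the ascites minus thioglycollate response, 2 for the KO minus WT response in each of M0, M1 and M2, 1 for the WT M2 minus WT M0 response, 1 for KO minus WT in M2, 4 for WT M1 and 5 for WT M2 against M0. Fits of only the libraries compared gave 2 for AP-3-84 in KO M0 and 1 for the genotype difference in M2 against M0. Total-count scaling gave 1 for that difference and 6 for WT M1 against M0. The cause was not tested.

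Leaving out each library gave 1 to 2 calls for AP-3-84 in ascites, 0 to 1 in WT M2 and 2 to 5 in KO M0. The KO minus WT response had 1 to 6 in M0 and 0 to 2 in M2. KO minus WT in vehicle had 2 to 6 in M0, 2 to 6 in M1 and 0 to 1 in M2. WT M1 against M0 had 1 to 4, and the genotype difference in M2 against M0 had 1 to 3.

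Whether replicate numbers pair the libraries was not settled. Over 24 pairs, r of deviations ran from -0.53 to 0.52, with 4 over 0.1 and 5 best with their own number. The 4 were in WT M2 (0.26 and 0.27) and KO M1 (0.45 and 0.52). Deviations within groups of 3 libraries cannot exclude shared animals or cultures. The replicate block lost 1 member call (Dusp2 in ascites, edgeR adjusted p = 0.0537) and gained 0. Total-count scaling shifted the median of all genes by -0.30 in WT M1 against M0 and by 0.27 in KO minus WT M1 (log2), the extremes over the 24 comparisons, and lost 6 member calls and gained 6. Bone marrow-derived depth limits Dusp8 and Dusp10.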
